A study of Mus musculus with 4 samples.

Results

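The expression of 10 ligand and receptor genes of the transforming growth factor beta (TGF-beta) family was examined in the epithelium of the mouse mammary gland. The genes were taken by symbol from the 27998 genes listed in each count table, and all 10 were present. The ligands were Tgfb1, Tgfb2, Tgfb3, Bmp4, Bmp7 and Inhbb, and the receptors were Tgfbr1, Tgfbr2, Bmpr1a and Bmpr2. They were compared between basal cells, luminal progenitors (LP) and mature luminal cells (ML), and between puberty and phases of the adult estrus cycle.

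Single epithelial cells were captured on the 10X Chromium platform, which counts the 3' ends of messenger RNA molecules by unique molecular identifiers. All cells came from untreated FVB/NJ mice and were total epithelium, gated as CD24+ and negative for markers of blood and endothelial cells. The puberty library came from glands at 5 weeks of age, and the estrus and diestrus libraries from adult glands at 10 weeks that were staged by cycle phase. Each adult library pooled the glands of more than 1 mouse, and the mice within it could not be separated.

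The puberty library had 5428 barcodes and 25365324 counts (median per cell 4103), the estrus library 2729 barcodes and 10962454 counts (median 3236), and the diestrus library 2439 barcodes and 11868593 counts (median 3974). A second deposited puberty table shared 5387 of its 5400 barcodes with the first, and 5387 is the cell number that the labels state for both tables combined. The stated numbers of the adult libraries equal their barcodes. The totals per shared barcode had a correlation of 0.997 on the log scale. Both tables were therefore counted as 1 library, and the first was used. The other pairs of tables shared at most 24 barcodes. With 1 library at each stage, stages could be described but not tested, and stage and library cannot be told apart.

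Cells were assigned to lineages with signatures that held none of the 10 genes and none of the 112 other pathway genes listed for this report. Genes linked to TGF-beta outside these lists were not held out, and Tgfb1i1 was in the basal signature. The basal class held 1132, 1307 and 1049 cells in puberty, estrus and diestrus, the LP class 1768, 471 and 566, and the ML class 2185, 782 and 681. Each list of defining markers was highest in its own class. These markers picked the seed cells from which the signatures were built, so this order followed from the assignment and is no separate check of it. The summed level of 8 basal markers was 23441 to 36149 counts per 1000000 counts of the class (CPM) in basal cells and at most 148 CPM in LP and ML cells. The 8 LP markers summed to 19918 to 43694 CPM in LP cells, 1304 to 1881 CPM in basal cells and 279 to 496 CPM in ML cells. Lcn2 alone gave 1139 to 1315 CPM of the basal sums and was found in 84.9 to 91.4% of basal cells. The 8 ML markers summed to 9120 to 13356 CPM in ML cells and at most 312 CPM in LP cells. In these 3 classes, immune markers summed to at most 34.3 CPM and pericyte markers to at most 12.1 CPM. Erythroid markers summed to 26.3 to 540 CPM in ML cells and at most 2.20 CPM in basal and LP cells. Fibroblast markers summed to 250 to 706 CPM in ML cells, 250 to 292 CPM in basal cells and at most 4.4 CPM in LP cells. Endothelial markers summed to at most 10.6 CPM. Of these, Cdh5 and Emcn were at 0, while Pecam1 was at 5.15, 9.35 and 10.6 CPM in LP cells of puberty, estrus and diestrus and Esam at up to 7.06 CPM in basal cells.

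Ligands of this family are secreted as dimers and bind a complex of type I and type II serine/threonine kinase receptors. TGF-beta ligands signal through Tgfbr2 and Tgfbr1 to Smad2 and Smad3, whereas bone morphogenetic proteins (BMPs) signal through Bmpr2 with type I receptors such as Bmpr1a to Smad1, Smad5 and Smad9. In both branches the activated Smads join Smad4 and enter the nucleus. In the mammary gland, TGF-beta is known as an inhibitor of ductal growth, and TGF-beta 3 is known for its part in the involution that follows lactation.

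The sequences upstream of the start sites of 3 of the genes are shown because these genes stood for 3 lineage patterns described below: Tgfb2 in LP and basal cells, Inhbb in both luminal lineages and Tgfbr2 highest in ML cells. They were read from the RefSeq promoter table of GRCm38.p6, which held 8 of the 10 genes (it has no entry for Tgfb3 or Bmp7), and each covers the 250 bases before the start site on the strand of the gene, 5′ to 3′. Capitals mark matches to CAGAC (the Smad box) or TATAAA (the TATA box). The window of Tgfb2 is chr1:186705990-186706239, that of Inhbb chr1:119422249-119422498 and that of Tgfbr2 chr9:116175364-116175613, all on the minus strand.
Tgfb2: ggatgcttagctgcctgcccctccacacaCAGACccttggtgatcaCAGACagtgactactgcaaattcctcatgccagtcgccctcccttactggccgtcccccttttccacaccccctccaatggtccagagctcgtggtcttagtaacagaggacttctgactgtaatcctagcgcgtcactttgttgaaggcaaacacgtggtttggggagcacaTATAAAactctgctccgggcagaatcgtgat
Inhbb: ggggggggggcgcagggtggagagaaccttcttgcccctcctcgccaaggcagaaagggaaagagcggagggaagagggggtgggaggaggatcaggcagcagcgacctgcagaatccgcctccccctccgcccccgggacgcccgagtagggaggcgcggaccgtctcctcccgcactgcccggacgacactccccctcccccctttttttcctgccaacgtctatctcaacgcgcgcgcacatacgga
Tgfbr2: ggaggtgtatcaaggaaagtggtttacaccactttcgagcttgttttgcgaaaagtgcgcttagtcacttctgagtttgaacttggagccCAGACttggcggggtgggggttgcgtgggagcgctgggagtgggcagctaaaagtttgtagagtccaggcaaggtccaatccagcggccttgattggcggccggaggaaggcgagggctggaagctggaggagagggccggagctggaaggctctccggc

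The motifs below were searched on both strands of these windows. Tgfb2 had CAGAC at positions -221 and -204 and TATAAA at -31, counted from the start site, and was the only one of the 9 member windows (Tgfbr1 has 2) with TATAAA, which occurred in 12.4% of all 32851 windows. CAGAC occurred in 3 of the 9 windows and in 42.2% of all windows. GGCGCC, a GC-rich Smad element, occurred in 3 of the 9, those of Bmpr1a, Bmpr2 and one of Tgfbr1, and in 9.59% of all windows. TGACGTCA (the cyclic AMP response element) and TGTTTAC (a Foxa motif) were in none of the 9, and in 1.55% and 3.17% of all windows. Inhbb held none of the 5 motifs.

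**Figure D1:**
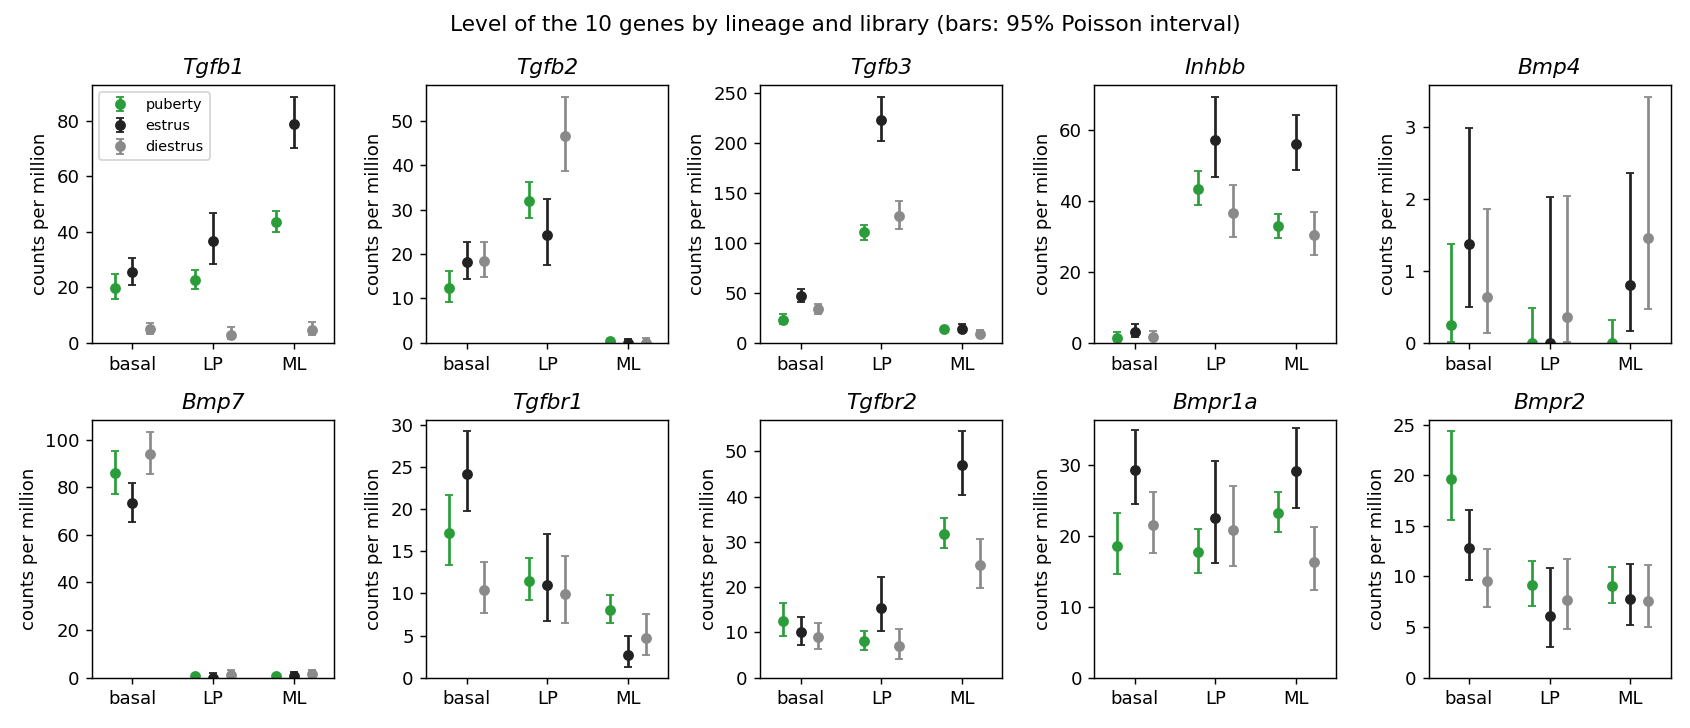
Level of each of the 10 genes (CPM of the summed counts of a class, linear axes that differ between panels) in basal, LP and ML cells of the puberty, estrus and diestrus libraries. Points are single libraries and bars are 95% Poisson intervals of the counts. Bmp7 lies at 73.1 to 94.0 in basal cells and at most 1.46 elsewhere, Tgfb3 is highest in LP cells, and Tgfb1 lies below 5 in every lineage of the diestrus library.

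Among the ligands, Tgfb3 was highest in LP cells. Tgfb3 (ENSMUSG00000021253; chr12:86056745-86079041, minus strand, GRCm38) encodes TGF-beta 3. In LP cells it had 836, 406 and 348 counts in puberty, estrus and diestrus, or 110 (95% Poisson interval 103 to 118), 223 (202 to 246) and 127 (114 to 141) CPM. In basal cells it was at 23.3, 47.2 and 33.5 CPM, and in ML cells at 13.7, 14.2 and 8.76 CPM. The 3 lineages did not overlap, and the order LP, basal, ML held in each library. Summed over cells and compared within libraries, Tgfb3 was lower in basal than in LP cells by a log2 fold change of -2.31 (SE 0.20, edgeR adjusted p = 4.64e-06), higher in basal than in ML cells by 1.40 (SE 0.23, edgeR adjusted p = 0.000312) and higher in LP than in ML cells by 3.71 (SE 0.22, edgeR adjusted p = 2.63e-07). The gene overlaps Ttll5, which lies on the opposite strand. The strand setting of the counting is not given in the sources used here.

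Tgfb2 was present in LP and basal cells and nearly absent from ML cells. Tgfb2 (ENSMUSG00000039239; chr1:186622792-186705989, minus strand) encodes TGF-beta 2 and overlaps 2 non-coding genes on the opposite strand, Gm26169 and Gm29491. It had 242, 44 and 127 counts in LP cells of puberty, estrus and diestrus (32.0, 24.2 and 46.5 CPM), 50, 80 and 87 counts in basal cells (12.3, 18.2 and 18.4 CPM), and 4, 0 and 0 counts in ML cells. In ML cells, none of 782 cells at estrus and none of 681 at diestrus had a count, which allows levels of up to 0.805 and 0.876 CPM at a floor of 3 counts. No library's LP value reached down to a basal value. The log2 fold change between basal and LP cells was -1.26 (SE 0.26, edgeR adjusted p = 0.00207). It was lost without the diestrus library, where the log2 fold change was -1.17 (edgeR adjusted p = 0.0245). Against ML cells, Tgfb2 was higher in basal cells by 6.03 (SE 0.49, edgeR adjusted p = 1.76e-06) and in LP cells by 7.29 (SE 0.45, edgeR adjusted p = 3.51e-07).

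Inhbb was a luminal gene in these cells. Inhbb (ENSMUSG00000037035; chr1:119415465-119422248, minus strand) encodes the beta B subunit of activins and inhibins. In LP cells it was at 43.5, 57.2 and 36.6 CPM in puberty, estrus and diestrus, and in ML cells at 32.9, 56.1 and 30.4 CPM. In basal cells it had 6, 14 and 8 counts, or 1.47, 3.19 and 1.69 CPM. Basal values lay below every luminal value, whereas LP and ML values overlapped. The log2 fold change was -4.64 (SE 0.22, edgeR adjusted p = 4.10e-08) between basal and LP cells and -4.19 (SE 0.22, edgeR adjusted p = 5.32e-08) between basal and ML cells. Between LP and ML cells it was 0.44 (SE 0.15, edgeR adjusted p = 0.0395), which did not pass the threshold of 0.01, although LP was the higher in 3 of 3 libraries.

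Bmp7 was the basal ligand of the set. Bmp7 (ENSMUSG00000008999; chr2:172868012-172940321, minus strand) encodes bone morphogenetic protein 7. Basal cells had 350, 321 and 444 counts in puberty, estrus and diestrus, or 85.8, 73.1 and 94.0 CPM (84.3 ± 10.5, SD, n = 3 libraries). LP cells had 4, 0 and 3 counts and ML cells 7, 3 and 5 counts. Bmp7 was higher in basal than in LP cells by a log2 fold change of 6.91 (SE 0.31, edgeR adjusted p = 2.84e-08) and higher in basal than in ML cells by 6.59 (SE 0.27, edgeR adjusted p = 1.06e-08). Its level outside basal cells was 0 to 1.55% of that inside them. In ML cells Bmp7 was at 0.713, 1.10 and 1.55% of its basal level in puberty, estrus and diestrus, where Krt14, which defines basal cells, was at 0.231, 0.289 and 0.444% and Acta2 at 0.188, 0.223 and 0.314%. In LP cells Bmp7 was at 0.616, 0 and 1.17%, Krt14 at 0.410, 0.231 and 2.04% and Acta2 at 0.199, 0.234 and 0.317%. The ML values of Bmp7 were thus above both markers in each library, from 3 to 7 counts. Krt14 and Acta2 were in the basal signature that assigned the cells, and Bmp7 was not, so the assignment itself favoured this order.

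Bmp4 was hardly detected. Bmp4 (ENSMUSG00000021835; chr14:46383520-46390669, minus strand) encodes bone morphogenetic protein 4, and overlaps Gm15217 and Gm15222 on the opposite strand. It had 1, 6 and 3 counts in basal cells, 0, 0 and 1 in LP cells and 0, 3 and 5 in ML cells. These counts did not pass the filter on low counts, and no lineage difference was tested. At most 0.459% of the basal, LP or ML cells of a library had a count, so a difference between these lineages was not detectable at this depth.

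Tgfb1 differed more between libraries than between lineages. Tgfb1 (ENSMUSG00000002603; chr7:25687002-25705077, plus strand) encodes TGF-beta 1. In puberty and estrus it was at 43.5 and 78.9 CPM in ML cells, 22.7 and 36.8 CPM in LP cells and 19.9 and 25.5 CPM in basal cells. In diestrus it was at 4.67, 2.93 and 4.87 CPM (16, 8 and 23 counts). The log2 fold change between basal and ML cells was -1.13 (SE 0.23, edgeR adjusted p = 0.00169), with basal cells lower in 2 of 3 libraries. In the diestrus library the basal to ML ratio was 1.04 (95% counting interval 0.527 to 2.11), against 0.456 (0.356 to 0.578) in puberty and 0.323 (0.258 to 0.403) in estrus. The call was lost without the puberty library (-1.20, edgeR adjusted p = 0.0126) and without the estrus library (-0.83, edgeR adjusted p = 0.0563). Without the diestrus library the log2 fold change was -1.42 (edgeR adjusted p = 0.000396). The differences between basal and LP cells (-0.42, SE 0.25, edgeR adjusted p = 0.203) and between LP and ML cells (-0.72, SE 0.23, edgeR adjusted p = 0.0293) did not pass the threshold.

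The largest log2 fold changes of the receptors were smaller than those of Tgfb2, Tgfb3, Inhbb and Bmp7. Tgfbr2 (ENSMUSG00000032440; chr9:116084293-116175360, minus strand), the type II receptor that binds TGF-beta, was highest in ML cells. It was at 31.7, 47.0 and 24.8 CPM there in puberty, estrus and diestrus, against 12.5, 10.0 and 8.89 CPM in basal cells and 8.06, 15.4 and 6.95 CPM in LP cells. ML values did not overlap with those of either other lineage, and basal and LP values overlapped. The log2 fold change was -1.68 between basal and ML cells (SE 0.21, edgeR adjusted p = 5.18e-05) and -1.63 between LP and ML cells (SE 0.22, edgeR adjusted p = 0.000168). Between basal and LP cells it was -0.06 (SE 0.25, edgeR adjusted p = 0.878).

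Tgfbr1 (ENSMUSG00000007613; chr4:47353222-47414931, plus strand), the type I partner of Tgfbr2, was ordered in the opposite way. It was at 17.2, 24.2 and 10.4 CPM in basal cells, 11.5, 11 and 9.88 CPM in LP cells and 8.04, 2.68 and 4.67 CPM in ML cells. Basal and LP values overlapped, and ML values lay below both. Tgfbr1 was higher in basal than in ML cells by 1.64 (SE 0.35, edgeR adjusted p = 0.00211). Without the estrus library this call was lost (1.03, edgeR adjusted p = 0.0118). The difference of 1.18 between LP and ML cells (SE 0.37, edgeR adjusted p = 0.0252) did not pass the threshold, with LP cells higher in 3 of 3 libraries.

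The BMP receptors among the 10 genes, Bmpr1a and Bmpr2, showed no called lineage difference. Bmpr1a (ENSMUSG00000021796; chr14:34410734-34503341, minus strand), a type I receptor, was at 18.6, 29.4 and 21.6 CPM in basal cells, 17.7, 22.5 and 20.9 CPM in LP cells and 23.3, 29.3 and 16.4 CPM in ML cells. All 3 lineages overlapped, and its log2 fold changes were -0.02 (SE 0.19), 0.0034 (SE 0.18) and 0.02 (SE 0.18) for basal minus LP, basal minus ML and LP minus ML. Their sign turned under several alternatives. Bmpr2 (ENSMUSG00000067336; chr1:59763400-59879014, plus strand), the type II receptor for BMPs, was at 19.6, 12.8 and 9.53 CPM in basal cells, 9.12, 6.05 and 7.69 CPM in LP cells and 9.01, 7.79 and 7.60 CPM in ML cells. Basal values lay above those of both luminal lineages, but the differences of 0.63 from LP (SE 0.24, edgeR adjusted p = 0.0490) and 0.76 from ML (SE 0.22, edgeR adjusted p = 0.0130) did not pass the threshold. When cycling cells were left out they did, at 0.89 and 0.94 (edgeR adjusted p = 0.00869 and 0.00306). Cycling cells made up 5.51 to 23.6% of basal, 4.46 to 19.6% of LP and 8.44 to 11.9% of ML cells over the libraries. Bmpr1a overlaps the antisense gene Gm17110, and Bmpr2 overlaps Gm38125 on its own strand.

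Of the 10 genes, 9 passed the filter on low counts and were tested. Between basal and LP cells 4 of 9 differed, 1 higher in basal cells and 3 lower, where 33.1% of all 11133 genes tested differed (16.9% higher, 16.2% lower). Between basal and ML cells 7 of 9 differed, 4 higher and 3 lower, beside 43.3% of all genes (23.3% higher, 20% lower). Between LP and ML cells 3 of 9 differed, 2 higher in LP cells and 1 lower, beside 28.3% (15.4% higher, 12.9% lower). The median log2 fold change of the 9 was -0.06, 0.76 and 0.13 in the 3 comparisons, and that of all genes tested was -0.0027, 0.036 and 0.037. The 3 libraries stood as replicates in this test, so the p-values measure the spread between these libraries, which also differ in stage.

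**Figure D2:**
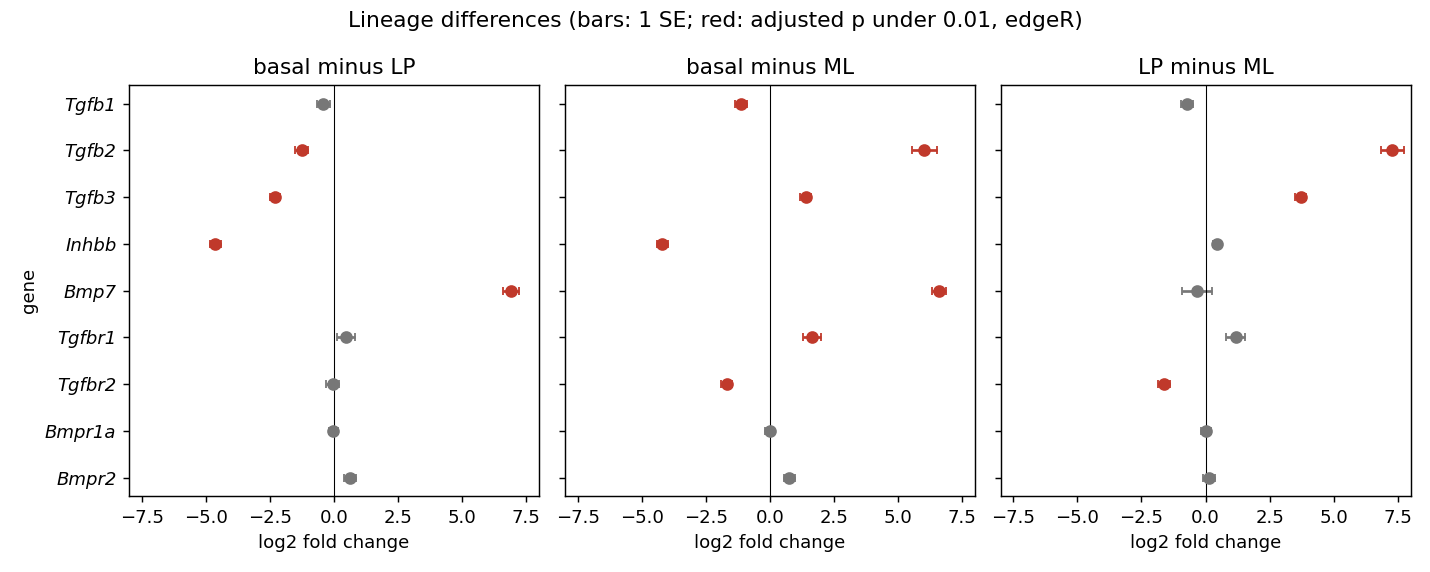
Log2 fold changes of the 9 tested genes between lineages, with bars of 1 SE (edgeR fit with 3 libraries as blocks) and red points for an adjusted p under 0.01. Bmp7 stands at 6.91 and 6.59 in the comparisons of basal cells, Tgfb2 at 6.03 and 7.29 against ML cells, and Bmpr1a at 0 in all 3 panels to within its SE.

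Most cells of a lineage had no count of a given gene. Tgfb3 was found in 30.1% of the pubertal LP cells (exact binomial 95% interval 28.0 to 32.3%), in 50.1% of those at estrus (45.5 to 54.7%) and in 40.1% of those at diestrus (36.0 to 44.3%). Bmp7 was found in 15.9 to 28.7% of basal cells over the 3 libraries, and in at most 0.734% of LP and ML cells. Krt14, found in 88.2 to 96.3% of basal cells, was found in 3.20 to 12.7% of LP and ML cells. Its basal level was 3751 to 7143 CPM, far above that of Bmp7, so the shares of these genes outside basal cells are not comparable.

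Depth differed between the classes, from a median of 2540 counts per cell in basal cells of estrus to 4670 in ML cells of puberty. After each cell was thinned to 2000 counts, which left out 65 to 359 shallower cells per class, Tgfb3 was found in 19.4 to 35.0% of LP cells, 5.43 to 9.60% of basal cells and 2.16 to 2.27% of ML cells. Before thinning, the basal and ML shares were 6.80 to 13.8% and 4.11 to 5.88%. Inhbb was found in 6.83 to 11.6% of LP cells and 5.6 to 12.9% of ML cells (14.4 to 19.3% and 12.6 to 21.4% before thinning), against 0.231 to 0.527% of basal cells (0.442 to 0.995%). Tgfbr2 was found in 5.68 to 8.81% of ML cells and at most 3.60% of the others (10.7 to 18.8% and at most 5.52%).

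Tgfb3 outside LP cells stood at a higher share of its LP level than the LP markers Csn3 and Wfdc18. Both markers were in the LP signature that assigned the cells, and the members were not. The assignment itself therefore favoured low marker levels outside LP cells, and these orders do not show where the counts came from. Tgfb3 in basal cells was at 21.1 to 26.3% of its LP level, where Csn3 was at 0.300 to 3.70% and Wfdc18 at 0.252 to 0.587%. In ML cells it was at 6.37 to 12.4%, where Csn3 was at 0.553 to 1.45% and Wfdc18 at 0.510 to 1.67%. Inhbb in basal cells was at 3.38, 5.58 and 4.63% of its LP level in puberty, estrus and diestrus, where Csn3 was at 3.70, 0.300 and 0.470% and Wfdc18 at 0.587, 0.252 and 0.329%. It was therefore below Csn3 in puberty and above both markers in the adult libraries. The other LP markers were not compared in this way. Among them, Lcn2 gave most of the LP marker sums of basal cells given above, so these orders hold for Csn3 and Wfdc18 only. Intervals and shares cover counting error only.

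Both receptors of a pair were rarely counted in the same cell. After thinning, Tgfbr1 and Tgfbr2 were both found in 3 of 2036 ML cells of puberty, in which Tgfbr1 was found in 27 and Tgfbr2 in 123. Tgfb2 and Tgfb3 were both found in 19 of 1595 pubertal LP cells, 8 of 389 at estrus and 12 of 498 at diestrus. At this depth such pairs say little about cells that express both.

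Between the LP and ML classes lay a luminal intermediate class (Lum Int) of 232, 114 and 94 cells in puberty, estrus and diestrus. Tgfb3 was there at 67.4, 124 and 75.3 CPM, between the LP and ML levels in each library, and Tgfb2 at 7.20, 11.8 and 16.2 CPM was also between them. Tgfbr2 was at 31.4, 32.9 and 29.5 CPM and Inhbb at 37.3, 81.6 and 34.0 CPM. Lum Int cells had a median of 6240, 6051 and 7157 counts in the 3 libraries, against 3179 to 4670 in LP and ML cells. Barcodes that Scrublet called doublets made up 30.6% of the puberty Lum Int class, 3.51% in estrus and 2.13% in diestrus. The part of doublets, called or missed, in these gene levels was not tested.

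The cycle phases were compared within each lineage as ratios of scaled CPM, with an exact interval that covers counting error only. Tgfb1 was lower in diestrus than in estrus in all 3 lineages, with ratios of 0.211 in basal cells (95% interval 0.129 to 0.333), 0.0790 in LP cells (0.0328 to 0.165) and 0.0673 in ML cells (0.0380 to 0.111). The share of ML cells with a Tgfb1 count was 27.5% in estrus and 2.20% in diestrus. In basal cells Tgfbr1 was also past 2-fold lower (0.476, 0.332 to 0.673), and in LP cells Tgfbr2 (0.449, 0.237 to 0.833). The Tgfbr1 ratio came from 49 counts against 106, and the Tgfbr2 ratio from 19 against 28.

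The other ratios of members with at least 20 counts were within 2-fold. Tgfb2 in LP cells was 1.91 times as high in diestrus (1.35 to 2.76), and Tgfb3 in LP cells was at 0.567 of its estrus level (0.490 to 0.656). Inhbb stood at 0.636 in LP cells (0.479 to 0.845) and 0.615 in ML cells (0.482 to 0.782). Bmp7 in basal cells was 1.42 times as high (1.23 to 1.65), and Tgfb3 there stood at 0.785 (0.634 to 0.971). In ML cells Tgfbr2 stood at 0.601 (0.458 to 0.783) and Bmpr1a at 0.635 (0.452 to 0.885). Tgfbr1 (1.98, 0.844 to 4.88) and Bmpr2 (1.11, 0.627 to 1.95) went the other way in ML cells, with intervals that include 1. Past 2-fold were 2 of 9 members with at least 20 counts in basal cells, 2 of 8 in LP cells and 1 of 7 in ML cells, all lower in diestrus. Of all genes, 12.6%, 14.2% and 9.31% were past 2-fold in the same lineages. Those higher in diestrus were 6.91%, 8.71% and 5.05%, and those lower 5.71%, 5.45% and 4.26%.

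The low Tgfb1 counts of diestrus stood with those of a small set of genes. Of 8081 genes with at least 20 counts in each lineage, 17 were at least 4-fold lower in diestrus than in estrus in all 3 lineages, Tgfb1 and Pgk1 among them, and 28 were at least 4-fold higher, Rpl41, Rps26 and Tmsb10 among them. Of the 17, 6 are named as ribosomal protein genes, Gm genes or pseudogenes, and so are 12 of the 28. The share of such names among the 8081 genes was not counted. Rpl41 had ratios of 7.19 to 7.53 and Pgk1 of 0.101 to 0.145 (the genes named beside Tgfb1 here were chosen after their values were seen). The other pairs of libraries also had genes past 4-fold in all 3 lineages. Over estrus, 33 of 8810 genes were higher in puberty and 0 lower. Over diestrus, 17 of 8916 were higher in puberty and 11 lower. All count tables listed the same gene identifiers and symbols. Whether all libraries were counted with the same annotation release and made with the same version of the chemistry is not given in the sources used here. The Tgfb1 ratios assume that they were, and the part of such library-wide shifts in the Tgfb1 values was not tested.

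Between puberty and both adult libraries no member was past 2-fold in the same direction in any lineage (0 of 9, 0 of 8 and 0 of 7), where 7.2%, 4.64% and 4.56% of all genes in basal, LP and ML cells were. Higher in puberty were 3.17%, 2.6% and 3% of all genes, and lower 4.03%, 2.04% and 1.56%. Tgfb1 in puberty was at 0.681 to 0.906 of its estrus level and at 4.29 to 10.1 times its diestrus level. Bmpr2 in basal cells was higher in puberty, by 1.79 over estrus (1.26 to 2.57) and 2.16 over diestrus (1.48 to 3.19). Tgfbr1 in ML cells was 3.70 times as high as in estrus (1.92 to 7.97, from 92 counts against 10) and 1.87 times as high as in diestrus (1.09 to 3.41). Tgfb3 in basal cells was at 0.575 of estrus (0.446 to 0.737) and 0.732 of diestrus (0.562 to 0.950). Without the scaling of libraries, the median ratio of all genes moved by up to 0.30 on the log2 scale, and the counts of members past 2-fold were the same.

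**Figure D3:**
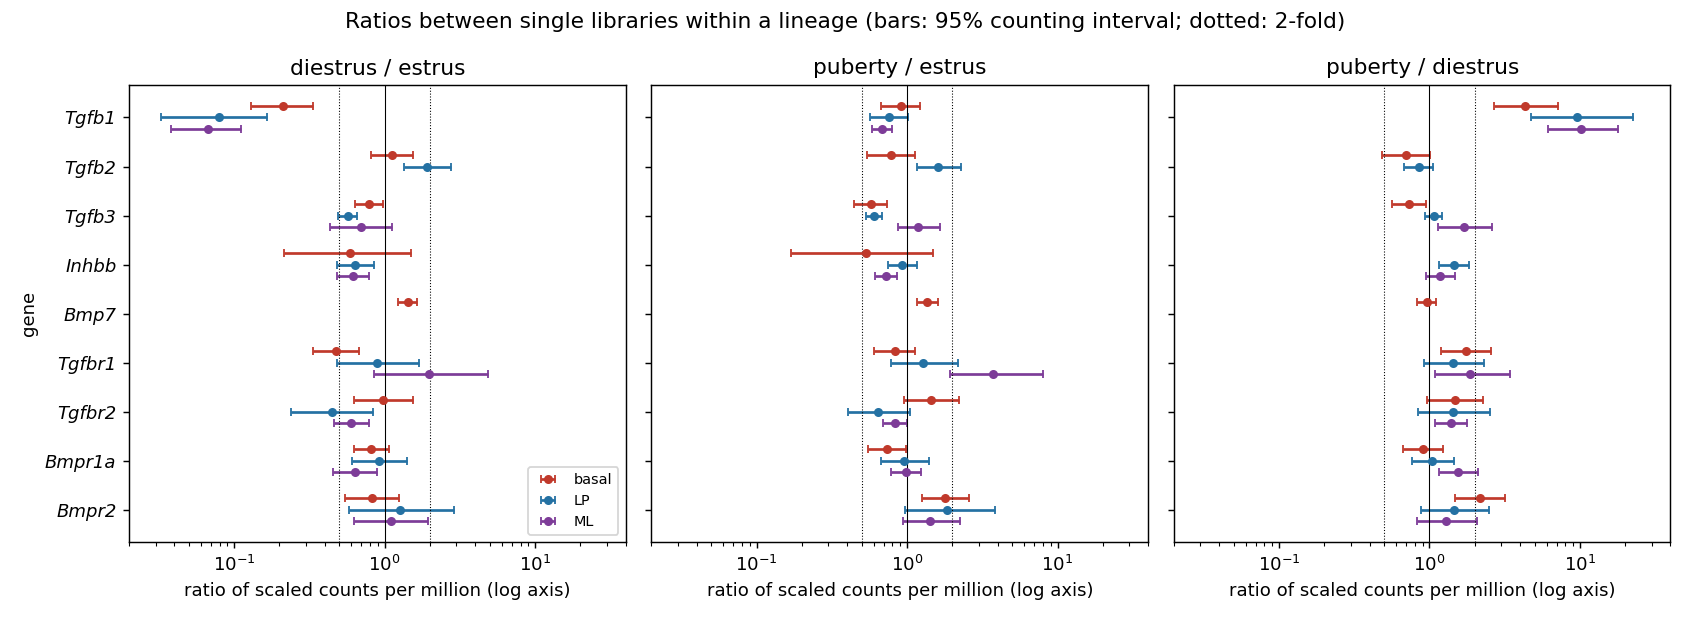
Ratios of scaled CPM between single libraries for 9 members in basal, LP and ML cells, on a log axis, with 95% counting intervals and dotted lines at 2-fold in either direction. Pairs with under 20 counts are left out. Tgfb1 lies left of the 2-fold line in all 3 lineages for diestrus over estrus, at 0.211, 0.0790 and 0.0673.

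A further 112 genes of the pathway were read from lists of ligands, receptors, Smads, modulators, regulators and target genes, and 74 of them were tested. Between basal and LP cells 31 were higher in basal cells and 7 lower, with a median log2 fold change of 0.56. Between basal and ML cells 39 were higher and 8 lower (median 0.96). Between LP and ML cells 24 were higher in LP cells and 12 lower (median 0.40). The lists were not tested as sets, and the shares and medians of all genes given above are the comparison.

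Extracellular modulators were mostly basal. Of 20 tested, 13 were higher in basal than in LP cells and 1 lower, with a list median of 2.04, and 14 were higher in basal than in ML cells with none lower. Fstl1, a secreted follistatin-like protein, had 402, 449 and 481 counts in basal cells of puberty, estrus and diestrus and 0 in LP cells of every library, which is at least 408-fold higher against a floor of 3 counts over the LP class. Fst, the activin antagonist follistatin, was higher in basal than in LP cells by 8.78 on the log2 scale (SE 0.61, edgeR adjusted p = 7.68e-07), and was lower in LP than in ML cells (-6.04, SE 0.65). Bgn, a matrix proteoglycan that binds TGF-beta, was higher in basal than in ML cells by 8.44 (SE 0.33). Lrrc32, which holds latent TGF-beta at the cell surface, went the other way and was higher in LP cells than in basal (-3.57 for basal minus LP, SE 0.56) and ML cells (4.35, SE 0.59). With Leiden clusters as classes both Lrrc32 calls were lost (edgeR adjusted p = 0.0170 and 0.0116). Itgb8, a subunit of an integrin that activates latent TGF-beta, was higher in LP than in ML cells (5.19, SE 0.58). Dcn, a proteoglycan that also marks fibroblasts, was lower in LP than in ML cells (-7.68, SE 0.43). Of the fibroblast sums given above, which include it, Dcn gave 325, 250 and 706 CPM of the ML sums of puberty, estrus and diestrus, and up to 4 of the 5 fibroblast markers were at 0 there.

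Of 10 other receptors and co-receptors, 5 were higher and 1 lower in basal than in LP cells, and 7 higher and 1 lower in basal than in ML cells. Tgfbr3 (betaglycan), which presents TGF-beta 2 to the signalling receptors, was at 47.8, 62.0 and 39.0 CPM in basal cells, 2.11, 3.85 and 3.29 CPM in LP cells and at most 0.29 CPM in ML cells. Its log2 fold change was 3.88 between basal and LP cells (SE 0.25, edgeR adjusted p = 4.51e-07) and 7.98 between basal and ML cells (SE 0.36, edgeR adjusted p = 1.71e-08). Bambi, a decoy receptor, was higher in basal (6.45, SE 0.28) and LP cells (5.14, SE 0.28) than in ML cells. Cd109, a co-receptor, was higher in basal than in LP cells (3.93, SE 0.49). Eng and Acvrl1, which are best known from endothelium, had other orders. Eng was lower in basal (-1.40, SE 0.26, at an edgeR adjusted p of 0.0167 without the estrus library) and LP cells (-4.59, SE 0.40) than in ML cells, and Acvrl1 was lower in basal than in LP cells (-1.81, SE 0.27). The 5 endothelial markers summed to 5.29 to 10.6 CPM in LP cells, 3.19 to 8.89 in basal cells and 1.46 to 3.22 in ML cells, and 2 to 4 of them were at 0 in a class. The part of the endothelial markers in the Acvrl1 difference was not tested.

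Among the other ligands only 4 of 27 passed the filter. Bmp2 was higher in LP cells than in basal (-3.40 for basal minus LP, SE 0.43) and ML cells (5.90, SE 0.55). Bmp3 and Inhba, the activin beta A subunit, were lower in LP than in ML cells (-5.92, SE 0.70, and -5.79, SE 0.60) and lower in basal than in ML cells (-5.29, SE 0.57, and -3.14, SE 0.43). The call of Bmp3 between LP and ML cells was lost with Leiden clusters (edgeR adjusted p = 0.0180).

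Of 7 Smads tested, 2 were higher in basal cells in both comparisons. They were Smad1, a mediator of BMP signals (1.96 against LP, SE 0.21, and 1.88 against ML, SE 0.19), and the inhibitory Smad7 (1.38, SE 0.16, and 1.62, SE 0.16). Smad4, the shared Smad, was higher in LP than in ML cells (0.94, SE 0.23, edgeR adjusted p = 0.00668), a call that was lost when any of the libraries was left out (edgeR adjusted p = 0.0244 to 0.0566). Of 18 intracellular regulators, 4 were higher and 2 lower in basal than in LP cells, and 6 higher and 3 lower in basal than in ML cells. The corepressor Tgif2 was higher in basal than in LP (1.21, SE 0.19) and ML cells (2.72, SE 0.20), and its relative Tgif1 lower in basal than in LP cells (-1.22, SE 0.17). The corepressor Ski was higher in basal than in LP cells (1.19, SE 0.15). The ubiquitin ligase Nedd4l was lower in basal than in LP (-2.22, SE 0.19) and ML cells (-1.01, SE 0.19, the latter at an edgeR adjusted p of 0.0140 without the estrus library), while Wwp1, another such ligase, was higher in basal than in ML cells (1.96, SE 0.26). The kinase Hipk2 was lower in basal (-2.30, SE 0.24) and LP cells (-2.0, SE 0.25, the latter at an edgeR adjusted p of 0.0184 with Leiden clusters) than in ML cells.

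Of 15 target genes tested, 7 were higher and 2 lower in basal than in LP cells, 10 higher and 2 lower in basal than in ML cells, and 7 higher and 3 lower in LP than in ML cells. The matrix genes Fn1 and Ctgf were basal. Fn1 had 109 counts in basal cells and 0 in LP cells, at least 33.4-fold higher, and Ctgf was higher in basal than in ML cells by 7.94 (SE 0.66). The Id genes, which encode inhibitors of helix-loop-helix factors and respond to BMPs, split by lineage. Id4 was higher in basal than in LP cells (6.73, SE 0.36, edgeR adjusted p = 9.61e-08). Id1 was lower in basal than in LP cells (-1.96, SE 0.34, at an edgeR adjusted p of 0.0115 without the estrus library) and higher in LP than in ML cells (4.39, SE 0.39), whereas Id3 was lower in basal (-1.47, SE 0.22) and LP cells (-4.28, SE 0.26) than in ML cells. With Leiden clusters the calls between basal and LP cells for Id1 and between basal and ML cells for Id3 were lost (edgeR adjusted p = 0.0112 and 0.0268). Hey1 was higher in LP cells than in basal (-4.96 for basal minus LP, SE 0.22) and ML cells (6.30, SE 0.24), and Msx2 was higher in ML cells (-6.87 for basal minus ML, SE 0.41, and -5.98 for LP minus ML, SE 0.40).

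**Figure D4:**
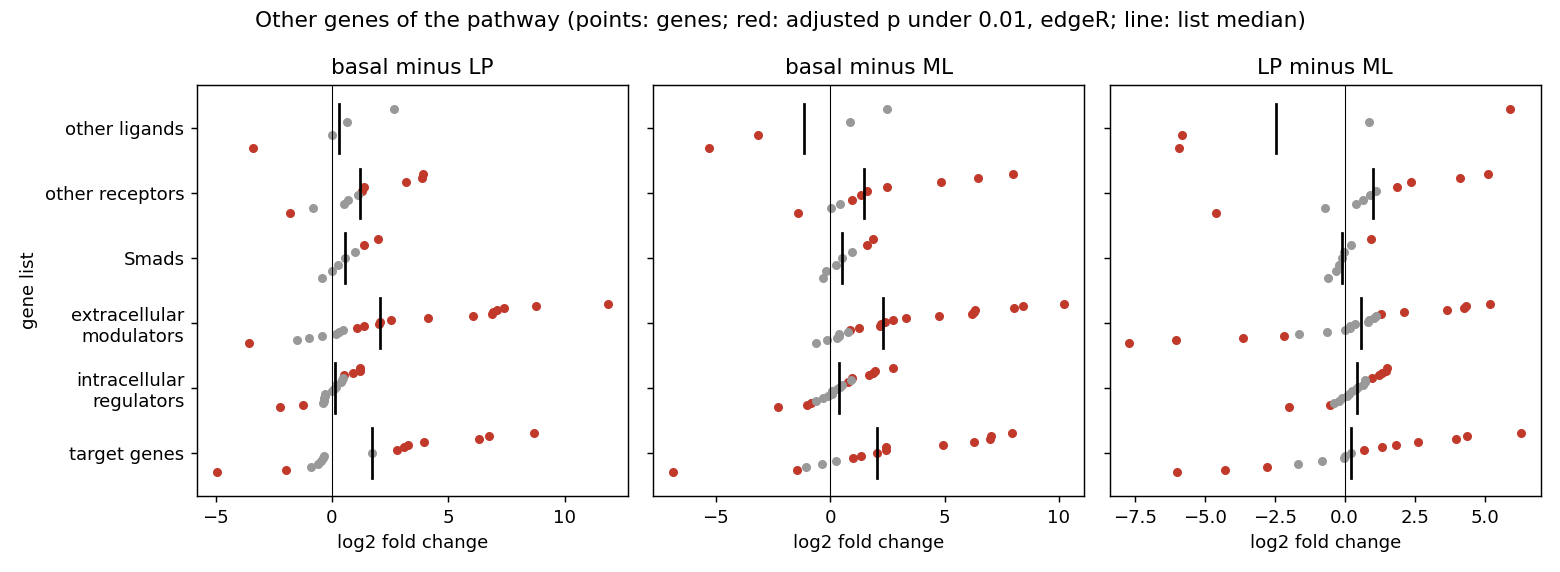
Log2 fold changes of the other tested genes of the pathway between lineages, by list. Points are genes, red points have an adjusted p under 0.01 (edgeR), and black lines are list medians. In the basal minus LP panel the extracellular modulators have a median of 2.04, with 13 of 20 genes called higher and 1 lower.

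Several other target genes and ligands were past 2-fold between stages. In basal cells Id4 had 1062 counts in diestrus and 112 in estrus, a ratio of 9.76 (8.02 to 12), and Gdf15, a stress-induced ligand, had 5 and 41 (0.125, 0.0387 to 0.317). Ctgf in basal cells was lower in puberty than in estrus (0.176, 0.158 to 0.197) and diestrus (0.360, 0.320 to 0.404). In LP cells Id1 (0.323, 0.282 to 0.370) and Bmp2 (0.305, 0.164 to 0.547) were lower in diestrus than in estrus, and Thbs1, thrombospondin 1, an activator of latent TGF-beta, was higher (3.25, 2.26 to 4.79). In ML cells Eng was lower in diestrus (0.299, 0.181 to 0.476), and Cdkn2b, a cell cycle inhibitor, stood at 0.471 (0.180 to 1.11, from 8 counts against 21). Bmpr1b, a type I receptor for BMPs, stood at 3.71 (1.41 to 11.4, from 18 counts against 6).

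Inhba in ML cells had 853 counts in puberty, 50 in estrus and 39 in diestrus, and was 6.86 times (5.16 to 9.32) and 7.11 times (5.16 to 10.1) as high as in the adult libraries. The related Inhbb had ratios of 0.723 and 1.18 in the same cells. Bmp3 in ML cells was lower in puberty (0.295, 0.187 to 0.464, and 0.239, 0.151 to 0.375), and so was Rgma, a BMP co-receptor, in LP cells (0.242, 0.141 to 0.411, and 0.355, 0.208 to 0.600). Smad6, an inhibitory Smad, stood at 0.429 and 0.473 in ML cells and at 0.470 and 0.355 in LP cells, from 5 to 16 counts each. Of the 112 genes, 3 were past 2-fold higher and 9 lower in diestrus than in estrus among 68 with enough counts in basal cells. In LP cells 3 and 5 among 45 were, and in ML cells 3 and 2 among 53. Of all genes in basal, LP and ML cells, 6.91%, 8.71% and 5.05% were higher and 5.71%, 5.45% and 4.26% lower. Against both adult libraries, 5 were higher and 4 lower in puberty among 74 in basal cells. In LP cells 0 and 2 among 59 were, and in ML cells 8 and 3 among 61. Of all genes, 3.17%, 2.6% and 3% were higher in puberty and 4.03%, 2.04% and 1.56% lower.

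The genes nearest to each member in level over the 9 lineage sums were named as a description. The 9 sums share 3 libraries, and many genes follow a lineage. Bmp7 lay closest to Fbln1, Col14a1 and Actg2 (Pearson r of log2 CPM 0.997, 0.996 and 0.996), Inhbb to Abhd14b, Ocln and Marveld3 (0.996, 0.995 and 0.994), Tgfb2 to Epb41l4a, Egln3 and St6galnac4 (0.991, 0.987 and 0.984) and Tgfb3 to Slc43a2, Ccny and Tnfaip3 (0.987, 0.987 and 0.985). Tgfbr2 lay closest to Plekhb2, Alg14 and Mgat5 (0.988, 0.986 and 0.972), Tgfbr1 to Zfp180, Fbxo33 and Midn (0.964, 0.961 and 0.956), Bmpr2 to Tle1, Homer1 and 4932438A13Rik (0.963, 0.959 and 0.959) and Bmpr1a to Hic2, Cyp4v3 and Polrmt (0.953, 0.893 and 0.865). Tgfb1 lay closest to Rpl29, Apoo-ps and Pgk1 (0.969, 0.936 and 0.935).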

How the data were processed

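The deposited files held counts of unique molecular identifiers per gene and barcode, without normalization. The authors made them with Cell Ranger 2.0 on the mm10 genome, per the submitters' processing notes. The annotation release is not given in the sources used here. Deposited barcodes were used as called. Cells were given to a lineage by signatures of 100 genes each, built from seed cells that 8 markers separated, with borders at 1/3 and 2/3 of the distance between lineages. Cells were left out if they had at least 3 markers of a non-epithelial type and that type's mean marker level lay above the keratin mean. The keratins were Krt5, Krt14, Krt8, Krt18 and Krt19. The cells left out numbered 15, 25 and 7 in puberty, estrus and diestrus. Counts were summed per library and lineage and fitted in edgeR 4.0.16 (R 4.3.3) by the quasi-likelihood test, with TMM scaling, filterByExpr and the library as a block, since all lineages of a library come from the same mice. The threshold was a Benjamini-Hochberg adjusted p of 0.01 over all genes tested. Stage ratios used TMM within a lineage, an exact conditional interval and 2-fold among genes with at least 20 counts. The test was checked on simulated data. Members and lists were chosen with earlier results of these data known. Named are all members, the genes of each list with the largest called changes and the same direction in 3 libraries (2 per direction), those of the stage ratios likewise, and the 3 nearest genes per member. All 10 members were found in the GENCODE vM21 annotation. Ltbp4 was not analysed here. Alternatives are given at the end.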

Additional observations from a re-analysis of the deposited data

Results flagged for a closer look

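The ratio of Tgfb3 between puberty and diestrus went in opposite directions in ML and basal cells. It was 1.70 in ML cells (1.15 to 2.61, from 157 counts against 30) and 0.732 in basal cells (0.562 to 0.950, from 95 counts against 158), and both counting intervals left out 1. The difference between the lineages was not tested, since each stage had 1 library. The same ratio in LP cells was 1.07 (0.939 to 1.21). With Leiden clusters as classes, the log2 ratio in ML cells was -0.50 in place of 0.77, and with cells thinned to 2000 counts the log2 ratio in basal cells was -0.07 in place of -0.45.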

How the results depend on the processing

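Of 2077 values of single genes under the alternatives, 1965 kept their direction and their side of the threshold or, for ratios with no test, moved by less than their counting error. Among the 1965 were 97 ratios read at a minimum of 5 counts and 97 read at 1.5-fold, settings that change no ratio. An adjusted p of 0.05 rests on the same fit, so there no direction could turn and no call could be lost. Near-zero differences turned. Bmpr1a turned in basal minus LP (0.030 with the second puberty table, 0.0096 in DESeq2, 0.060 in seed cells, and -0.081 to 0.056 with each library left out), in basal minus ML (-0.00051 in DESeq2, -0.045 with no count filter, -0.033 in seed cells, -0.038 with quality filters, -0.0079 without cycling cells, -0.032 after thinning, and -0.18 to 0.14 with each library left out) and in LP minus ML (-0.010 in DESeq2, -0.036 with no count filter, -0.093 in seed cells, and -0.16 to 0.086 with each library left out). Tgfbr2 turned in basal minus LP (0.11 with quality filters, and -0.31 to 0.33 with each library left out) and Bmpr2 in LP minus ML (-0.34 after thinning, and -0.032 to 0.14 with each library left out). Members called between LP and ML cells rose from 3 to 5 with no count filter and 6 at an adjusted p of 0.05. The shares of all genes called at these 2 settings are not given here. With each library left out, 3 to 4, 5 to 7 and 3 members were called in the 3 comparisons, and 2631 to 2797, 3618 to 3971 and 2010 to 2231 genes of all, from 3684, 4820 and 3146. Fewer sums are fitted there. With no replicate block, 2432 genes between basal and LP cells and 1769 between LP and ML cells were called, with 3, 5 and 3 members in the 3 comparisons. The calls lost were Tgfb2 in basal minus LP (adjusted p = 0.0117) and Tgfb1 and Tgfbr1 in basal minus ML (0.275 and 0.0133). Leiden classes lost Tgfb2 in basal minus LP (0.0180), and quality filters Tgfbr1 in basal minus ML (0.0161). Other pathway genes lost calls with Leiden clusters (Lrrc32, Bmp3, Hipk2, Id1, Id3, Smad4 and Fkbp1a), with no replicate block (Acvrl1 0.0127, Eng 0.0378, Nedd4l 0.0239, Smad4 0.0657, Fkbp1a 0.0777), in DESeq2 (Fn1 0.0205 in basal minus LP and 0.0198 in basal minus ML, Smad4 0.0160), in seed cells (Nedd4l 0.0227, Fkbp1a 0.0165), after thinning (Nedd4l 0.0397, Smad4 0.115) and with the second puberty table (Smad4 0.0148).

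Members past 2-fold between diestrus and estrus in ML cells rose from 1 to 3 with at least 5 counts, to 2 in seed cells, Leiden clusters, without cycling cells and after thinning, and to 5 at 1.5-fold. In LP cells the count of 2 became 1 in seed cells and 5 at 1.5-fold, and in basal cells 1 without cycling cells. Between puberty and both adult libraries the count of 0 became 1 in basal cells with at least 5 counts and at 1.5-fold, and 1 in ML cells with at least 5 counts, in seed cells, Leiden clusters, after thinning and at 1.5-fold. The shares of all genes are given above for the main setting only, 2-fold with at least 20 counts. The counts of members at the other settings therefore have no such share beside them. The causes were not tested. Members at 0 to 20 counts in a class limit these ratios, and 1 library per stage limits every statement on stage.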
